A study of Mus musculus with 4 samples.

Results

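The genes described here encode the proteins of the large subunit of the mitochondrial ribosome. Members were the rows of the authors' deposited table whose symbol is Mrpl followed by a number, with pseudogene rows left out. This gave 48 of the table's 16442 genes, and no measured value entered the choice. Large subunit proteins that carry other names (Mrps30 and Mrps18a among them) are given separately as a comparison.

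Mitochondria have their own ribosome, which translates the few mRNAs of the mitochondrial genome into core subunits of the respiratory chain. All of its proteins are encoded in the nucleus, translated by cytosolic ribosomes and imported. Some large subunit proteins have bacterial homologues, and others were added in the mitochondrial lineage. Leukaemic cells of the myeloid lineage are known for their dependence on mitochondrial translation and respiration.

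The source was bone marrow of leukaemic C57BL/6 mice, from which leukaemia stem cells had been isolated. There were 2 WT libraries and 2 labelled as knockouts of Rreb1, a gene for a zinc finger transcription factor. As the genotype given for KO replicate 2 is Rreb2-KO, this library was placed by its title, and both are called KO-labelled. The agent that started the leukaemia, the ages of the animals, the cells in which the allele was removed and the part of the gene removed are not stated in the labels. Micrococcal nuclease (10 µg/ml, 30 minutes) was added to the lysates, the protected pieces of 25 to 40 nucleotides were sequenced as ribosome footprints, and undigested lysate gave the input RNA. Replicates are described as biological without naming animals, so a p-value here measures only how far these libraries spread, which may be technical.

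WT replicates 1 and 2 held 878068 and 656249 assigned footprint reads, and KO-labelled replicates 1 and 2 held 364087 and 274183. A gene of 1 kilobase with 1 read had a footprint level of 1.14, 1.52, 2.75 and 3.65 RPKM (read density over the coding sequence, scaled to the assigned reads) in these libraries in that order. Values below follow the same order. Input RNA is also given in RPKM, but over another length, which is not stated. Rreb1 itself had an input RNA level of 3.33, 3.25, 6.10 and 6.93 RPKM and footprints of 14.1, 12.8, 12.9 and 8.19 RPKM, so its RNA was not lower in the KO-labelled libraries. Among markers of haematopoietic cells, Ptprc had 31.0, 31.2, 28.5 and 30.8 RPKM of RNA, and Spi1 had 330, 318, 302 and 285. Both were below WT in both KO-labelled libraries. Runx1 was above WT in both, with 4.45, 3.92, 5.12 and 6.45 RPKM. Summed RNA of 6 progenitor and leukaemia stem cell markers was 84.6, 84.3, 159 and 154 RPKM, 4 of them above WT in both KO-labelled libraries and 1 below.

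The start regions of 6 members whose RNA was called higher in the KO-labelled cells are shown first, since RNA is the measure in which members passed the test. RefSeq promoter windows on GRCm38.p6, from 250 bases before to 50 after a transcript start, were found by symbol for 42 of the 48 members, in 47 windows. They were searched on both strands for 4 strings: CCGGAAG, the core bound by ETS factors; GCGCA and GCGC with any base between them, bound by NRF1; AAGATGG, bound by YY1; and CCACCCC, part of the consensus of RREB1. The first 3 are known from promoters of nuclear genes for mitochondrial proteins. Those printed are the members called higher in RNA in the fit over the 6389 genes tested in footprints that have an ETS or NRF1 match lying wholly within 100 bases before and 10 after the start. They run 5′ to 3′ on the gene's strand, each 110 bases long and ending 10 bases into the transcript, with the matched letters in capitals.
Mrpl12, chr11:120484537-120484646, plus strand: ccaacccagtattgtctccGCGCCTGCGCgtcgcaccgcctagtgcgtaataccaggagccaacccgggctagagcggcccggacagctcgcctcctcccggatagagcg
Mrpl33, chr5:31613851-31613960, plus strand: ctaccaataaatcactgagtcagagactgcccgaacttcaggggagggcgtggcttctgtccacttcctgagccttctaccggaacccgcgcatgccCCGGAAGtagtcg
Mrpl43, chr19:45006433-45006542, minus strand: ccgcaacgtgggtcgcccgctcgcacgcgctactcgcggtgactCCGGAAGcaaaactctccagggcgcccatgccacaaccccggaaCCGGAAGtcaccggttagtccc
Mrpl48, chr7:100583121-100583230, minus strand, 1 of 4 windows of this gene: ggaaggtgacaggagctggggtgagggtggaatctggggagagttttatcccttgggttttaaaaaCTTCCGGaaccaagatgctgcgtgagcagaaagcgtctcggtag
Mrpl51, chr6:125192100-125192209, plus strand: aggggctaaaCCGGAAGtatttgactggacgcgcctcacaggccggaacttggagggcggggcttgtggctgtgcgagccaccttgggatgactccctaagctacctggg
Mrpl58, chr11:115403652-115403761, plus strand: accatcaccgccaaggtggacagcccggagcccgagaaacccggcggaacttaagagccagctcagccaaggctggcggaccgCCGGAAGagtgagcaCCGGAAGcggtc

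The capitals mark an NRF1 match in Mrpl12 and ETS matches in the other 5 stretches, with 2 ETS matches each in Mrpl43 and Mrpl58. No match in these stretches overlapped another. In Mrpl33 the ETS letters ran from base -3 to base 4 around the start, and in Mrpl51 from -90 to -84. The ETS string was found in 14 of the 47 member windows (29.8%), against 8.86% of all 32851 windows of the same length. NRF1 letters were found in 10 (21.3%), against 4.6%, and YY1 letters in 7 (14.9%), against 6.34%. The RREB1 letters were found in 7 member windows (14.9%), against 15.1% of all windows. Of the 19 members with a window that were called higher in RNA, 7 had the ETS letters, 2 the NRF1 letters, 2 the YY1 letters and 2 the RREB1 letters. These matches describe the sequence only, and binding was not measured in these libraries.

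Input RNA of the large subunit genes was mostly higher in the KO-labelled cells. The summed RNA of the 48 members was 1730, 1710, 2276 and 2131 RPKM, and the median member had 24.3, 25.9, 31.3 and 30.8 RPKM. Both KO-labelled libraries lay above both WT libraries in each of these measures. With 2 libraries against 2, an exact two-sided permutation test of such a sum cannot go below p = 0.333. In bulk samples, more RNA per cell and more cells of a type with much of this RNA cannot be told apart.

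**Figure D1:**
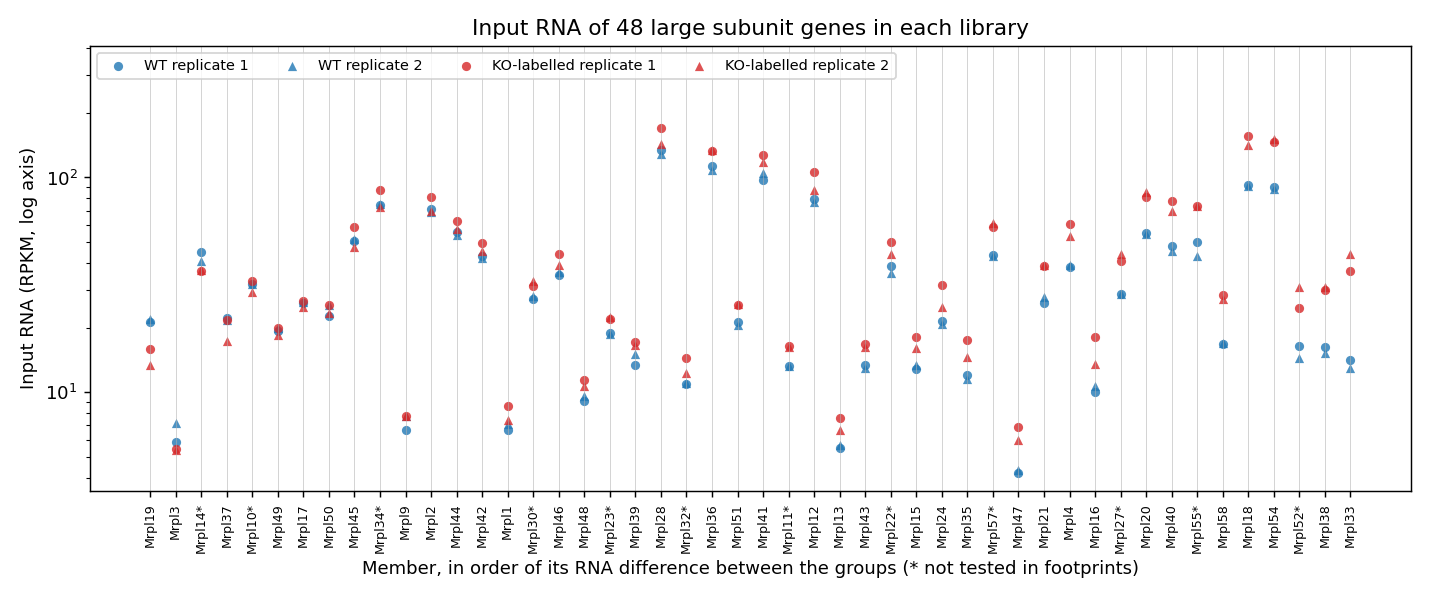
Input RNA (RPKM, log axis) of each of the 48 members in the 4 libraries, ordered from the member with the lowest difference between the groups to the highest; an asterisk marks the 12 members not tested in footprints. Replicates lie close together, and in 36 members both KO-labelled points lie above both WT points. That was so in 44.4% of the 6389 genes tested in footprints.

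Of the 36 members with enough footprints to enter the fits (a CPM of at least 20, reads scaled to library size, in at least 2 libraries), 24 had higher RNA in the KO-labelled cells, 1 had lower RNA and 11 did not pass the test (limma with Benjamini-Hochberg adjustment over all 6389 genes tested, threshold 0.05). Over all genes tested, 33.1% were called higher and 27.7% lower, and the median log2 difference was 0.04, against a median of 0.28 for the members. The difference was above 0 in 31 members and below 0 in 5, where 53.8% and 46.2% of all genes had these signs. The groups did not overlap in 30 of the 36 members, 27 with the KO-labelled libraries above and 3 below, where 44.4% and 37.6% of all genes did so. With 1 WT library left out, 13 members (without WT replicate 1) or 12 (without WT replicate 2) were called higher.

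The filter on footprints does not bear on RNA, so RNA was also fitted for genes with at least 1 RPKM of RNA in at least 2 libraries, a setting added after the data were seen. All 48 members then entered among 12194 genes, of which 32.2% were called higher and 21.1% lower by limma. Of the members 27 were called higher, 1 lower and 20 neither. The 12 members without enough footprints contributed 8 of the calls higher and none lower. Of the 24 earlier calls, 5 were not made in this fit, those of Mrpl12 (limma adjusted p = 0.0637), Mrpl28 (0.0853), Mrpl39 (0.0573), Mrpl46 (0.0665) and Mrpl48 (0.061). Over all 48, the KO-labelled libraries lay above WT in 36, below in 4, and overlapped WT in 8. Shares of this kind were not counted over the 12194 genes. Among the 6389 genes tested in footprints they were 44.4% above and 37.6% below.

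Mrpl33, a small bacterial-type protein (bL33m), had the largest RNA difference of the tested members. Its RNA was 14.2 and 13 RPKM in WT and 36.7 and 43.9 RPKM in the KO-labelled libraries, a log2 difference of 1.5 ± 0.10 with its SE (n = 2 per group, limma adjusted p = 1.94e-05). Mrpl38, a mitochondria-specific protein of the central protuberance, followed with 16.2, 15.2, 29.8 and 30.8 RPKM, a log2 difference of 0.90 ± 0.07 (limma adjusted p = 4.76e-05). In both, the lowest KO-labelled value was well above the highest WT value.

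The next 3 were Mrpl54, at the base of the L7/L12 stalk, Mrpl18, the protein of the central protuberance that binds 5S rRNA in bacteria, and Mrpl58, a peptidyl-tRNA hydrolase built into the subunit. Mrpl54 had 90.5, 88.6, 146 and 152 RPKM of RNA (log2 difference 0.73 ± 0.06, limma adjusted p = 7.67e-05). Mrpl18 had 92.2, 91.2, 156 and 142 RPKM (0.69 ± 0.07), and Mrpl58 had 16.8, 17.0, 28.4 and 27.2 RPKM (0.69 ± 0.07). The groups stood apart in all 3.

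Among members outside the structural groups described further on, Mrpl20, Mrpl21, Mrpl35, Mrpl15, Mrpl43, Mrpl13, Mrpl41, Mrpl51, Mrpl36, Mrpl28 and Mrpl39 were also higher in RNA, with log2 differences from 0.24 (Mrpl39) to 0.59 (Mrpl20). Mrpl20 had 55.2, 54.7, 80.9 and 85.7 RPKM of RNA. Mrpl42, Mrpl44, Mrpl9 and Mrpl50 had differences of 0.15, 0.13, 0.09 and 0.02 and were not called. Of the members without enough footprints, Mrpl57 (0.47 ± 0.06) and Mrpl30 (0.21 ± 0.06) were called higher in the fit filtered on RNA, while Mrpl32 (0.26 ± 0.10), Mrpl34 (0.09 ± 0.10) and Mrpl14 (-0.21 ± 0.07) were not called.

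Mrpl19, a bacterial-type protein (bL19m), was the single member called lower in RNA. It had 21.3, 22.0, 15.9 and 13.3 RPKM, a log2 difference of -0.54 ± 0.09 (limma adjusted p = 0.00196). The other members at the low end did not pass the test. Mrpl3 had 5.89, 7.21, 5.44 and 5.36 RPKM (log2 difference -0.23 ± 0.10), and Mrpl37, a mitochondria-specific protein, had 22.2, 21.8, 21.6 and 17.3 RPKM (-0.18 ± 0.10). Mrpl49 and Mrpl17 had log2 differences of -0.03 and -0.02, within their SE of 0.07. Their signs turned without KO replicate 2, to 0.02 and 0.03.

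Ribosome footprints did not follow the RNA upwards. The 48 members summed to 3139 and 3118 RPKM of footprints in WT and to 1542 and 2695 RPKM in the KO-labelled libraries. Their median was 45.0, 55.3, 24.9 and 51.0 RPKM, so KO-labelled replicate 1 was low and replicate 2 lay between the WT libraries. The spread between the KO-labelled replicates was larger than the gap from KO-labelled replicate 2 to WT.

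**Figure D2:**
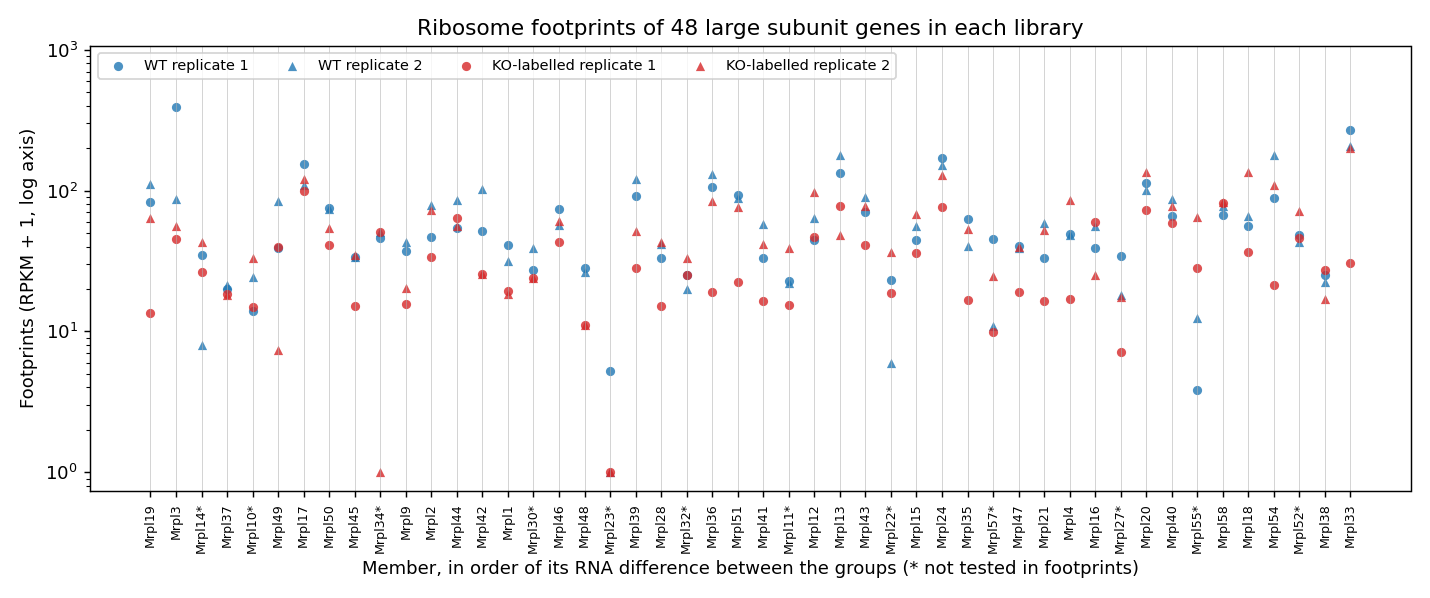
Footprint level (RPKM + 1, log axis) of each of the 48 members in the 4 libraries, in the same order as for RNA. KO-labelled replicate 1 lies below KO-labelled replicate 2 in 36 of the 48 members, and the replicates of a group lie farther apart than in RNA.

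As a share of assigned reads, the members took 0.202% (exact 95% binomial interval 0.193 to 0.212) and 0.192% (0.182 to 0.203) in WT. The KO-labelled libraries gave 0.0992% (0.0892 to 0.11) and 0.161% (0.146 to 0.176). These are 1777, 1260, 361 and 440 reads on the 47 members whose reads could be recovered, and the intervals cover counting error only. Mrpl3 alone held 367 of the 1777 reads of WT replicate 1. Without it the shares were 0.161%, 0.183%, 0.0945% and 0.155%, and KO-labelled replicate 2 then lay within the interval of WT replicate 1 (0.152 to 0.169).

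**Figure D3:**
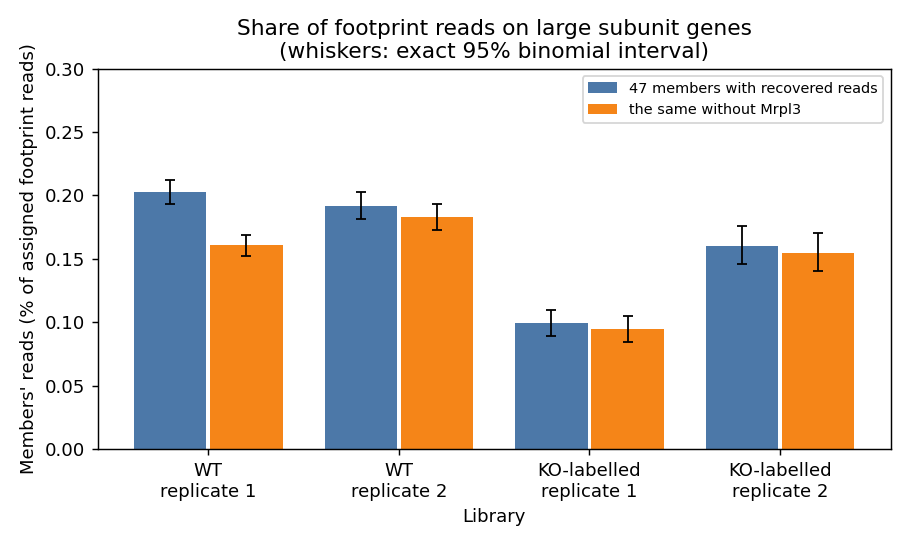
Share of each library's assigned footprint reads that fell on the members, with exact 95% binomial intervals, for the 47 members with recovered reads (blue) and the same without Mrpl3 (orange). KO-labelled replicate 1 is lowest at 0.0992%, and without Mrpl3 the interval of KO-labelled replicate 2 overlaps that of WT replicate 1.

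No tested member was called in footprints (limma, adjusted p under 0.05), where 0.595% of all genes were called higher and 0.47% lower. At an unadjusted p under 0.05, 6 members were lower (Mrpl1, Mrpl9, Mrpl13, Mrpl39, Mrpl42 and Mrpl48) and 0 higher, while 12.4% of all genes were lower and 5.84% higher. The count lower at this threshold was 1 in a voom fit, 1 without WT replicate 1, 1 without WT replicate 2, 7 without KO replicate 1 and 20 without KO replicate 2. Mrpl1, Mrpl9, Mrpl42 and Mrpl48 entered the fit through WT alone, where they were high, since neither KO-labelled library reached a CPM of 20. Their place among the 6 is therefore partly set by the filter. The log2 difference was below 0 in 33 of the 36 members, as it was in 57.4% of all genes. Its median was -0.58 against -0.13 over all genes. Members that entered through WT alone are in these values and in the counts that follow. With a CPM of at least 10 in all 4 libraries, the median was -0.45 over 33 members and -0.10 over all genes. Both KO-labelled libraries lay below both WT libraries in 14 members and above in 1, with overlap in 21; over all genes these shares were 32.1% below and 20.5% above. A voom fit on recovered reads also called 0 members, moved the median of all genes to 0.03, and gave a member median of -0.41.

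These values turn on the KO-labelled replicates. Without KO replicate 1 the median member difference was -0.19 with 0 members called, and without KO replicate 2 it was -1.02 with 7 members called lower, beside 9.92% of all genes. In each of these fits the KO-labelled arm is 1 library, assumed to vary as the WT libraries do. KO-labelled replicate 1 lay below KO-labelled replicate 2 in 27 of the 36 tested members, and in 61% of all genes tested; in RNA it lay above KO-labelled replicate 2 in 29 of the 36, and in 50.1% of all genes. Across the 36 members, log2 footprint levels of the WT pair had r = 0.782 and those of the KO-labelled pair r = 0.391, where log2 RNA had 0.998 and 0.995. The members are not independent replicates in these correlations. Reads per member were few, with a median of 26, 23, 5 and 8 over the libraries, and 32 and 27 members had under 10 reads in the KO-labelled libraries.

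Mrpl3, the protein with an extension reaching towards the peptidyl transferase centre, had the lowest footprint difference. Its footprints were 394, 86.1, 44.0 and 54.9 RPKM, from 367, 60, 17 and 16 reads, a log2 difference of -1.89 ± 0.76 (limma adjusted p = 0.297). The WT libraries lay farther apart from each other than WT replicate 2 did from the KO-labelled libraries.

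Mrpl49, a mitochondria-specific protein, had 38.2, 83.3, 38.8 and 6.43 RPKM (log2 difference -1.74 ± 0.92), the last from a single read. Mrpl19 had 81.9, 110, 12.5 and 62.5 RPKM (-1.71 ± 0.79), and here the groups did not overlap. Mrpl33 had 266, 207, 29.9 and 198 RPKM (-1.59 ± 0.92) from 43, 25, 2 and 10 reads, so that only KO-labelled replicate 1 stood far below WT. Mrpl36, whose homologue is the smallest bacterial large subunit protein, had 104, 129, 18.0 and 83.4 RPKM (-1.55 ± 0.76).

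The 6 members with an unadjusted p under 0.05 were lower in both KO-labelled libraries. Mrpl48, of the central protuberance, had footprints of 27.2, 25.2, 10.1 and 10.1 RPKM, with a log2 difference of -1.30 ± 0.33 (limma adjusted p = 0.164). Mrpl13, a bacterial-type protein (uL13m), had 132, 177, 77 and 47.7 RPKM (-1.32 ± 0.37), and Mrpl39, mitochondria-specific, had 90.4, 119, 27.2 and 50.7 RPKM (-1.46 ± 0.41). Mrpl42 had 51.0, 102, 24.6 and 24.5 RPKM, Mrpl9 had 36.5, 42.3, 14.7 and 19.5 RPKM, and Mrpl1 had 40.4, 30.7, 18.4 and 17.5 RPKM. The groups did not overlap in any of the 6, which largely follows from picking them by this p-value and adds no support. Mrpl1, Mrpl9, Mrpl42 and Mrpl48 had also passed the filter through WT alone. Only 3 to 15 reads stood behind each KO-labelled value.

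At the other end of the order, Mrpl12, the L7/L12 homologue that recruits translation factors, had 43.4, 63.2, 45.5 and 96.8 RPKM of footprints (log2 difference 0.34 ± 0.48). Mrpl18 had 54.8, 64.9, 35.6 and 135 RPKM (0.22 ± 0.68). In both, the WT values fell between the KO-labelled replicates or overlapped them, and both differences were below 0 without KO replicate 2 (-0.20 and -0.73). Mrpl58 had 66.3, 76.4, 80.0 and 82.6 RPKM (0.19 ± 0.28) and was the only tested member with both KO-labelled libraries above both WT libraries. Mrpl15 (-0.01 ± 0.43) and Mrpl20 (-0.10 ± 0.40) completed the highest 5, and the signs of both turned in a voom fit, to 0.15 and 0.04, that of Mrpl15 also with libraries centred on their medians, to 0.05.

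Translational efficiency (TE), the deposited ratio of the footprint value to the input RNA value, combines both. The median TE of the 48 members was 1.52, 1.85, 0.831 and 1.22, lower in both KO-labelled libraries than in both WT libraries. The log2 TE difference was below 0 in 34 of the 36 tested members, where 59.6% of all genes had such a sign, and its median was -1.02 against -0.15 over all genes. No member passed the test, and neither did any other gene (limma, 0 of 6389 genes, 0%, with an unadjusted p under 0.05 in 831 genes). At an unadjusted p under 0.05, 7 members were lower and 0 higher, against 9.99% of all genes lower and 3.02% higher. Among these 7 were Mrpl1, Mrpl9, Mrpl42 and Mrpl48, which entered the fits through WT alone. Both KO-labelled libraries lay below both WT libraries in 21 members and above in 0, against 32.3% and 15.6% of all genes. Members that entered through WT alone are also in these counts and in the median. With a CPM of at least 10 in all 4 libraries, the median TE difference was -0.80 over 33 members and -0.13 over all genes.

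The TE values rest on the same libraries as the footprints. Without KO replicate 1 the median TE difference was -0.41 with 0 members called, and without KO replicate 2, with a single KO-labelled library assumed to vary like WT, it was -1.41 with 12 members called lower, beside 5.85% of all genes. Of the 24 members called higher in RNA, 21 had a footprint difference below 0 and 3 above, the 3 being Mrpl12, Mrpl18 and Mrpl58. The footprint difference was below 0 in 33 of all 36 tested members and in 57.4% of all genes tested. The share among all genes called higher in RNA was not counted. Footprints and TE share a numerator, and RNA is the denominator of TE, so the 3 measures are not independent. A higher RNA level with an equal footprint level gives a lower TE by construction.

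**Figure D4:**
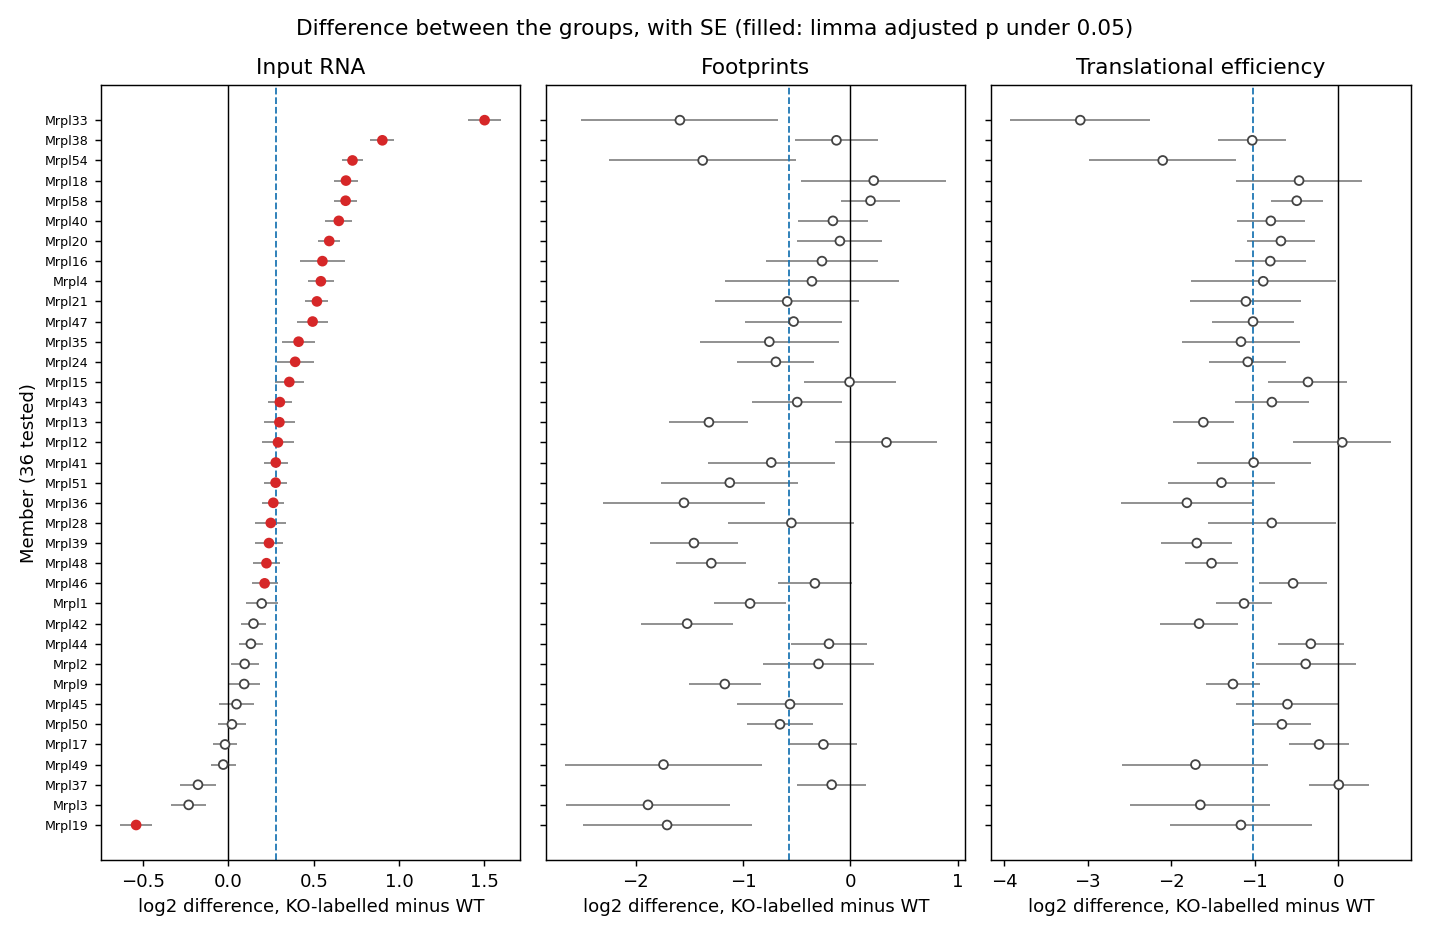
Log2 difference between KO-labelled and WT libraries, with its SE, for the 36 tested members in input RNA, footprints and TE, in the order of the RNA difference; filled points passed limma's test (adjusted p under 0.05), and the dashed line is the median of the members. The RNA panel has 25 filled points, 24 of them above 0, and the footprint and TE panels have none, with medians of -0.58 and -1.02.

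The lowest TE difference was that of Mrpl33, with TE of 17.6, 14.9, 0.818 and 4.43, a log2 difference of -3.09 ± 0.84 (limma adjusted p = 0.303). Its KO-labelled replicates differed by more from each other than the WT replicates did, and both lay below WT. Mrpl54 had a TE of 0.964, 1.98, 0.145 and 0.715 (-2.1 ± 0.88), and Mrpl36 had 0.919, 1.19, 0.142 and 0.626 (-1.81 ± 0.79). Mrpl49 (-1.71 ± 0.87) and Mrpl39 (-1.70 ± 0.43) followed. Mrpl39 had a TE of 6.37, 7.52, 1.56 and 2.93, while in Mrpl49 KO-labelled replicate 1, at 1.91, was close to WT replicate 1, at 1.92.

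The highest 5 of the tested members had TE differences nearest to or above 0. Mrpl12 had a TE of 0.553, 0.820, 0.436 and 1.11 (log2 difference 0.05 ± 0.59) and Mrpl37 had 0.854, 0.940, 0.811 and 0.997 (0.01 ± 0.36). Mrpl17, at the tunnel exit, had 5.70, 4.01, 3.58 and 4.64 (-0.23 ± 0.36). Mrpl44, which carries an RNase III fold, had -0.33 ± 0.40, and Mrpl15 had -0.36 ± 0.47. The groups overlapped in all of these, and each sign turned in at least 1 fit that left out a library.

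The members differed widely among themselves in WT cells. The highest mean WT footprint levels, per length of coding sequence, were those of Mrpl3 (240 RPKM), Mrpl33 (237), Mrpl24 (161), Mrpl13 (154) and Mrpl54 (132). The place of Mrpl3 rests on WT replicate 1, since in WT replicate 2 its 86.1 RPKM lay below Mrpl33 (207), Mrpl54 (177), Mrpl13 (177), Mrpl24 (152) and Mrpl36 (129). The highest mean WT RNA levels were those of Mrpl28 (131 RPKM), Mrpl36 (111), Mrpl41 (101), Mrpl18 (91.7) and Mrpl54 (89.5), so Mrpl54 was high in both. Mrpl47 (4.27 RPKM) and Mrpl13 (5.58) had the lowest RNA. In RPKM, Mrpl13 had low RNA, high footprints and a mean WT TE of 23.6, while Mrpl28 had the highest RNA and a mean WT TE of 0.284. Input RNA was not scaled to the coding length, as footprints were. Mrpl13 and Mrpl41 had coding lengths of 535 and 534 bases. Their RNA in WT replicate 1 was 5.50 and 97.2 RPKM, from 834 and 550 recovered input reads. RNA and TE levels of different genes therefore also reflect unlike lengths, and are not read as abundance or translation.

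Across the 48 members, log2 mean WT RNA and log2 mean WT footprints had a Pearson r of -0.03 and a Spearman rho of 0.01. RNA and footprints were scaled to unlike lengths, so these values cannot tell whether the 48 genes' RNA and footprints were related. The proteins enter a single particle in about equal numbers, with Mrpl12 as the known exception, present in several copies. Coding lengths of the tested members, inferred from the steps between RPKM values, ran from 184 to 1269 bases. Some of them were not whole codons. Across the 36 tested members, log2 coding length correlated with the log2 RNA difference at r = -0.50 and rho = -0.38, so shorter members tended to have the larger RNA differences. Mrpl33 was both the shortest (184 bases) and the member with the largest RNA difference, and r was not computed without it. The footprint difference gave r = 0.22 and rho = 0.16, and the TE difference r = 0.50 and rho = 0.26. All of these points come from the same 4 libraries.

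The members were also split by origin, with no test of the difference between the sets. Of 30 bacterial-type members 20 were tested, with 14 higher and 1 lower in RNA and median log2 differences of 0.33 in RNA, -0.57 in footprints and -1.05 in TE. Of 18 mitochondria-specific members 16 were tested, with 10 higher and 0 lower in RNA and medians of 0.23, -0.61 and -0.91. Over all genes tested, 33.1% were called higher in RNA. No member of either set was called in footprints or TE.

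The central protuberance, which contacts the small subunit, was the structural group with the highest RNA median. All 6 of its tested members (Mrpl18, Mrpl38, Mrpl40, Mrpl46, Mrpl48 and Mrpl58) were called higher in RNA, beside 33.1% of all genes, with a median log2 difference of 0.67 and a range of 0.21 to 0.90. Mrpl46 and Mrpl48 lost the call in the fit filtered on RNA (limma adjusted p = 0.0665 and 0.061) and without either WT library (0.124 to 0.239). Its untested members Mrpl52 (16.4, 14.5, 24.6 and 30.9 RPKM) and Mrpl55 (50.0, 43.2, 74.0 and 73.6 RPKM) were also called higher in the fit filtered on RNA, by 0.80 ± 0.13 and 0.66 ± 0.08 on the log2 scale. The median footprint difference of the 6 was -0.15, close to the -0.13 of all genes, and the median TE difference was -0.68. Mrpl40 had footprints of 64.5, 86.3, 57.8 and 76.7 RPKM beside RNA of 48.1, 45.2, 78 and 69.5 RPKM, and Mrpl46 had 72.4, 55.6, 42.1 and 60.1 RPKM beside 35.1, 36.3, 44.0 and 39.2 RPKM.

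The L7/L12 stalk, where translation factors bind, has 4 members here. Mrpl12 and Mrpl54 were tested and both were higher in RNA. Mrpl12 had 79.3, 77.3, 106 and 87.0 RPKM, a log2 difference of 0.29 ± 0.10 (limma adjusted p = 0.0328). Its call was lost in the fit filtered on RNA (limma adjusted p = 0.0637), with no filter (0.127) and without WT replicate 1 (0.107) or 2 (0.155). Mrpl54 had footprints of 87.2, 177, 20.3 and 108 RPKM, with KO-labelled replicate 2 between the WT libraries. Mrpl10 and Mrpl11, the stalk base, held too few footprints to be tested, with RNA of 31.8, 31.9, 32.9 and 29.4 RPKM for Mrpl10, and of 13.2, 13.2, 16.4 and 16.3 RPKM for Mrpl11. Mrpl11 was called higher in the fit filtered on RNA (0.29 ± 0.06, limma adjusted p = 0.0158) and Mrpl10 was not (-0.03 ± 0.08). Mrpl1, which forms the L1 stalk near the exit site of tRNA, had RNA of 6.64, 7.08, 8.59 and 7.42 RPKM and was not called (0.19 ± 0.09).

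Around the peptidyl transferase centre, Mrpl4 and Mrpl16 were called higher in RNA, while Mrpl2 and Mrpl3 were not called. Mrpl4 had RNA of 38.3, 39.3, 60.4 and 53.7 RPKM (log2 difference 0.54 ± 0.08, limma adjusted p = 0.000776), and its footprints of 48.4, 47.1, 15.9 and 84.5 RPKM put the KO-labelled replicates on either side of WT. Mrpl16 had RNA of 10.0, 10.7, 18.2 and 13.5 RPKM (0.55 ± 0.13) and footprints of 37.8, 54.6, 58.4 and 24.2 RPKM. Mrpl2 had RNA of 71.3, 69.3, 80.7 and 70.0 RPKM and footprints of 45.9, 78, 32.9 and 71.5 RPKM, with overlap in both. Mrpl27, too low in footprints to be tested (33.3, 17.2, 6.19 and 16.4 RPKM), had RNA of 28.5, 28.6, 40.8 and 44.2 RPKM and was called higher in the fit filtered on RNA (0.56 ± 0.07).

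Of the proteins that line the exit of the nascent chain tunnel, Mrpl24 and Mrpl47 were called higher in RNA and Mrpl17 and Mrpl45 were not. Mrpl24 had RNA of 21.5, 20.7, 31.4 and 24.9 RPKM (log2 difference 0.39 ± 0.11) and footprints of 169, 152, 75.8 and 129 RPKM, with both KO-labelled libraries below WT. Mrpl47 had RNA of 4.19, 4.35, 6.87 and 5.99 RPKM (0.49 ± 0.09) and footprints of 39.2, 38.3, 18.2 and 38.6 RPKM. Mrpl45, which anchors the ribosome to the inner membrane, had RNA of 50.7, 51.5, 58.8 and 47.4 RPKM (0.05 ± 0.10) and footprints of 32.7, 32.8, 14.1 and 33.6 RPKM. In Mrpl45 and Mrpl47 the footprints of KO-labelled replicate 2 equalled those of WT within 1 RPKM, and replicate 1 alone was low.

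Mrpl22 and Mrpl23, also at the tunnel exit, were among the members with almost no footprints. Mrpl22 had 6, 1, 2 and 3 reads beside RNA of 38.7, 35.9, 50.0 and 43.9 RPKM. Mrpl23 had footprints of 4.27 RPKM in WT replicate 1 and was listed at 0 in the other 3 libraries, beside RNA of 18.8, 18.8, 22.0 and 22.3 RPKM. Both were called higher in RNA in the fit filtered on RNA, by 0.32 ± 0.09 and 0.23 ± 0.06 on the log2 scale. Mrpl34 had footprints of 45.4, 49.7 and 49.8 RPKM in the first 3 libraries and 0 reads in KO-labelled replicate 2, which allows up to 39.6 RPKM there. TE values of members at 0 reads reflect the added floor of 1 and are not read here.

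Mrpl55 had footprints of 2.83, 11.4, 27.3 and 63.5 RPKM, from 1, 3, 4 and 7 reads. It was 1 of 3 members, with Mrpl58 and Mrpl32, in which both KO-labelled libraries lay above both WT libraries. Of the 48 members, 16 lay below and 29 overlapped. Among the 6389 genes tested in footprints, 20.5% lay above and 32.1% below. Mrpl55 was not tested, and it was the only member whose TE lay higher in both KO-labelled libraries (0.0752, 0.28, 0.378 and 0.865). In TE, 26 members lay below, where 15.6% of the genes tested lay above and 32.3% below. Mrpl55 was singled out after its values were seen.

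Other proteins of the same particle and pathway were counted in the same way. Of 17 tested Mrps genes, which encode mainly the small subunit, 9 were higher and 1 (Mrps30) lower in RNA, beside 33.1% and 27.7% of all genes. Their median log2 differences were 0.26 in RNA, -0.48 in footprints and -0.67 in TE, against 0.04, -0.13 and -0.15 over all genes. Mrps30, a large subunit protein despite its name, had 9.86, 9.71, 8.31 and 7.55 RPKM of RNA (-0.27 ± 0.08, limma adjusted p = 0.023). Mrps18a, the other tested protein of this kind, had a log2 RNA difference of 0.19 ± 0.09 and was not called.

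Of 8 tested assembly factors of the large subunit, 3 were higher in RNA, 3 lower and 2 were not called, near the shares of all genes called higher (33.1%) and lower (27.7%). Higher were the helicase Dhx30 (log2 difference 0.32 ± 0.08), the pseudouridine synthase Trub2 (0.41 ± 0.09) and Mpv17l2 (0.29 ± 0.07). Lower were the helicase Ddx28 (-0.30 ± 0.08), the RNA-binding protein Fastkd2 (-0.38 ± 0.10) and the GTPase Noa1 (-0.52 ± 0.09). Of 11 tested translation factors and partners of mitochondrial mRNA 3 were higher (Mtrf1l, a release factor, Guf1, a back-translocase, and Slirp, an mRNA-binding partner of Lrpprc) and 0 lower. Of 7 proteases and partners that process or clear imported proteins, Clpp was higher (0.43 ± 0.09), and Clpx (-0.43 ± 0.07), Afg3l2 (-0.28 ± 0.08) and Pmpca (-0.23 ± 0.07) were lower. These genes were named after their values were seen. None of these lists had a member called in footprints or TE, and whether any of them differed from the Mrpl genes was not tested.

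The authors' deposited p-value, headed as adjusted, was under 0.05 for 9 of the 48 members (Mrpl1, Mrpl9, Mrpl13, Mrpl33, Mrpl38, Mrpl39, Mrpl48, Mrpl52 and Mrpl58), and so were 20.9% of all 16442 genes. The labels do not say how that column was computed.

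The groups also differed in the RNA of genes used as markers of cell types. Which cells held this RNA was not measured. Summed RNA of 7 myeloid markers was 16438, 16220, 10133 and 8978 RPKM, with 4 of them, Lyz2 and Csf1r among them, below WT in both KO-labelled libraries and 1, Cebpa, above. Markers of mast cells and basophils summed to 12.2, 13.4, 251 and 240 RPKM over the 4 in the table, 3 of them above WT and Ms4a2 under 1 RPKM throughout. Erythroid markers summed to 84.4, 76.1, 421 and 514 RPKM, with 5 of 6 above WT and 1, Klf1, below WT and under 1 RPKM in every library. Stroma markers summed to 1.19, 1.36, 23.5 and 26.6 RPKM over 2 genes, both above WT. T cell markers summed to 1.54, 2.1, 5.79 and 5.94 RPKM, with 3 of 4 above WT. Of these markers, Cd3e, Cd3d and Cd3g were under 1 RPKM in every library, and Lck had 0.821, 0.808, 4.17 and 4.17 RPKM. B cell markers summed to 43.0, 40.5, 28.3 and 26.4 RPKM over 2 genes, 1 above and 1 below WT. Footprints of the erythroid markers summed to 23.3, 141, 1086 and 27.8 RPKM, so KO-labelled replicate 1, the library with the lowest member footprints, stood apart there too. The part of these cell types, of depth and of single libraries in the members' differences was not tested.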

How the data were processed

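Ribosome footprints and input RNA were measured in 4 mouse libraries, 2 per group. The tools named, per the submitters' processing notes, are HISAT2 2.1.0, featureCounts, DESeq2 and CASAVA. They also name the human build hg38 for mouse samples; the handling of multi-mapping reads and strand is not stated. The footprint values deposited by the authors behave as RPKM plus 1, a unit read from the values. The deposited TE is a ratio, footprint value over input RNA value, both with a floor of 1. The p-values are used only as deposited by the authors. No column of per-sample values was left unmatched.

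RNA was taken as the footprint value over TE, minus 1. The steps between RPKM values gave whole reads for the 10536 genes with footprints in at least 2 libraries (tolerance 0.002 reads), which took in 47 members. They served the filter, the read shares and the voom alternative. Input reads of the members were recovered from the RNA values in a similar way, and showed that RNA was not scaled to the coding length. Log2(value + 1) of footprints and RNA, and log2 TE, were fitted with limma 3.58.1 in R 4.3.3 (mean-variance trend, group as the only term, two-sided, Benjamini-Hochberg), for 6389 genes with a CPM of at least 20 in at least 2 libraries. Fold changes on this scale are understated for low genes. Shares, counts, motif searches and plots used Python 3.11.15. The recovery and the fits were tested on simulated data.

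The members, gene lists, tests and the rule for named genes were chosen with earlier results of these data known. Named with values were the 5 highest and 5 lowest tested members in each measure, the 5 with the highest footprints, members of 5 structural groups and any member called in footprints or TE. The labels do not pair the libraries. An erythroid marker of the list is not reported here.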

Additional observations from a re-analysis of the deposited data

How the results depend on the processing

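Depth limits these results: the median member had 5 and 8 footprint reads in the KO-labelled libraries. Pseudocounts of 0.5 and 5, no filter, a CPM of at least 10 in all 4 libraries, median centring, no trend and the replicate block left the counts of members called within 1.5 times, as did a voom fit of footprints. Median centring moved the median of all genes from -0.15 to -0.02 in TE, and voom from -0.13 to 0.03 in footprints. Over all genes, footprints gave 68 calls, against 0 with no filter (1674 genes at an unadjusted p under 0.05), 5 with the filter on all 4 libraries, 110 with a pseudocount of 5, 0 without WT replicate 1 or 2 (395 and 420 unadjusted), 336 without KO replicate 1 and 1097 without KO replicate 2. TE gave 0, against 149 and 699 without KO replicates 1 and 2. Leaving out 1 library in turn gave 0 to 7 members lower in footprints (7 without KO replicate 2), with the median from -1.015 to -0.188. It gave 12 to 28 members higher and 1 to 2 lower in RNA, and 0 to 12 lower in TE, with the TE median from -1.408 to -0.412. The labels do not say whether same-numbered libraries belong together. Deviations of same-numbered libraries correlated at 0.02 in footprints and -0.34 in RNA. With 2 libraries per group, these values cannot decide whether they were paired. With the replicate block, RNA gave 20 members higher and 1 lower, and footprints and TE 0. With the numbers crossed, RNA gave 25 higher and 3 lower. Signs turned for footprints of Mrpl15 with median centring (0.051) and voom (0.145), and of Mrpl20 with voom (0.035). Leaving out single libraries gave ranges that crossed 0 for footprints of Mrpl15 (-0.476 to 0.461), Mrpl20 (-0.548 to 0.354), Mrpl12 (-0.198 to 0.873) and Mrpl18 (-0.729 to 1.166), for RNA of Mrpl17 (-0.068 to 0.028) and Mrpl49 (-0.077 to 0.016), and for TE of Mrpl12 (-0.627 to 0.721), Mrpl17 (-0.483 to 0.023), Mrpl37 (-0.144 to 0.155), Mrpl44 (-0.680 to 0.020) and Mrpl15 (-0.917 to 0.189). None of these values passed the test, and the cause was not tested. Of 593 values of single members under alternatives, 514 kept direction and side of the threshold, 51 lost the call, 11 gained it and 17 reversed.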
